A study of Mus musculus with 70 samples.

Results

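Ly6a, Ly6c1, Ly6c2, Ly6d, Ly6e, Ly6g and Ly6i are 7 mouse genes of the Ly6 surface antigen family, and they were followed here in 4 blood cell types of mice exposed to social stress. They were chosen by name, as 7 of the 52636 genes in the deposited count table, and all 7 were found by their Ensembl identifiers in GENCODE M21, of which 5 or 6 passed the filter on low counts within each sorted cell type. C57BL/6J mice, bought at 7 weeks of age, were put through chronic social defeat stress (CSDS) for 10 days, in which an aggressive CD-1 mouse attacks the test mouse daily and the pair is then housed with a divider between them. A social interaction test then separated mice that avoided a new CD-1 mouse (stress-susceptible, SUS) from those that did not (resilient, RES), and control mice (CON) were not defeated. The methods describe white blood cells of trunk blood, sorted by antibodies to CD11b, Ly6C, Ly6G, B220 and CD90.2 into Ly6Chigh monocytes, Ly6Clow monocytes, B cells and T cells, whereas brain is named as the source in the sample labels, and this conflict was not resolved. All groups shared the C57BL/6J strain, and no allele or drug set them apart.

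Ly6 proteins are small, cysteine-rich domains with a finger-like fold that sit on the outer face of the plasma membrane through a glycosylphosphatidylinositol (GPI) lipid anchor. Immunologists know them mostly as antigens. Ly6C divides blood monocytes into classical and patrolling types, Ly6G marks mouse neutrophils, and Ly6a, better known as Sca-1, marks blood stem cells and is raised on activated lymphocytes and by interferons. Ly6d is a marker of the B lineage, and Ly6e is a widely expressed, interferon-inducible member.

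For every sort there were 6 CON, 6 SUS and 6 RES libraries, apart from the 4 CON libraries of Ly6Clow monocytes. One library labelled B cells of RES mice (library 52) and one labelled T cells of RES mice (library 70) went against their labels and were left out, which left 68 of 70 libraries, with 5 RES libraries each of B and T cells. Library 52 held Cd3e, a T cell receptor subunit, at 412 CPM (counts per 1e+06 of the scaled library total) and Cd79a, a B cell receptor subunit, at 5.76 CPM, while library 70 held Cd3e at 0.143 CPM and Cd79a at 1417 CPM. The 68 libraries held 19769835 to 67038231 counts. Defining markers followed the remaining labels. The median Cd79a level was 1482 CPM in B cells, that of Cd3e was 429 CPM in T cells, that of Ccr2, the chemokine receptor of classical monocytes, was 1955 CPM in Ly6Chigh against 246 CPM in Ly6Clow monocytes, and that of Ace, a marker of Ly6Clow monocytes, was 2685 CPM in Ly6Clow against 243 CPM in Ly6Chigh monocytes. The Ly6Clow libraries also held the natural killer cell receptor Ncr1 at 62.3 to 319 CPM. The summed level of 12 neutrophil markers, some of them shared with monocytes, was 703 to 2458 CPM in Ly6Chigh and 224 to 292 CPM in Ly6Clow monocytes and at most 19.9 CPM in B and T cells. Among these markers Csf3r had a median of 456 CPM in Ly6Chigh monocytes, and the neutrophil chemokine receptor Cxcr2 was at or under 1.62 CPM there. Others were higher, with SUS and RES means there of 213 and 159 CPM for Ngp and 143 and 92.9 CPM for Ltf. Those of Lcn2 were 145 and 63.0 CPM and those of Camp 43.6 and 30.9 CPM, while Retnlg and Mmp9 averaged at most 3.34 CPM in these groups. Higher in RES mice were Cd177, with SUS and RES means of 422 and 467 CPM, and Csf3r, with 468 and 479 CPM. The part of neutrophils in the Ly6Chigh libraries was not tested. Labels give no animal for a library, so p-values measure the spread between libraries, and libraries of different cell types were treated as independent.

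The genes lie together on chromosome 15 of GRCm38. From low to high coordinates they are Ly6d (ENSMUSG00000034634, 74762056 to 74763620, minus strand), Ly6e (ENSMUSG00000022587, 74955051 to 74959905, plus strand), Ly6i (ENSMUSG00000022586, 74979534 to 74983430, minus strand), Ly6a (ENSMUSG00000075602, 74994877 to 74998031, minus strand), Ly6c1 (ENSMUSG00000079018, 75044018 to 75048830, minus strand), Ly6c2 (ENSMUSG00000022584, 75108158 to 75111970, minus strand) and Ly6g (ENSMUSG00000022582, 75155240 to 75159126, plus strand). None of their exons overlapped an exon of another gene. Their proteins have 127 (Ly6d) to 136 (Ly6e) residues. Coding sequences of Ly6a, Ly6c1, Ly6c2, Ly6g and Ly6i were 78.0% to 97.7% identical to each other, whereas Ly6d and Ly6e were 48.5% to 53.0% identical to the others.

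Ly6c1 and Ly6c2 were the closest pair, with 9 differing bases among 396 coding bases. This likeness bears on how far reads can be told apart, so the first 300 coding bases of both, read from the GENCODE transcripts, are shown 5′ to 3′ with the 7 differing bases of that stretch in capitals.
Ly6c1: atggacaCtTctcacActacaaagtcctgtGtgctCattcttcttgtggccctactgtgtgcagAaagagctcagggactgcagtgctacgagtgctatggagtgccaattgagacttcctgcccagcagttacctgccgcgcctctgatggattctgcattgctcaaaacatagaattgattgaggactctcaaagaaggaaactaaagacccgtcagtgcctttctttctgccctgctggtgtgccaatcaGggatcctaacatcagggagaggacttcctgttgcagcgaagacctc
Ly6c2: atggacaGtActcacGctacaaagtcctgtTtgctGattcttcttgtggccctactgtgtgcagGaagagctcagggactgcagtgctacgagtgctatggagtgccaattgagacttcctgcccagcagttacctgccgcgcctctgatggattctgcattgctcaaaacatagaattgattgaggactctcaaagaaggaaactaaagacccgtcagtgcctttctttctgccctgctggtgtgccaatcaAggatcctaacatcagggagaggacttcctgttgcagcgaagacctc
The longest run that both share spans 188 bases. Of all 100-base windows of the transcripts, 15.3% of those of Ly6c1 and 15.8% of those of Ly6c2 occur unchanged in the other gene, and at 150 bases, the length of 1 read here, 5.61% and 5.79% do. The other members had no shared window at 100 bases. At 50 bases, 8.05% of the windows of Ly6a, 4.97% of Ly6i and 0.448% of Ly6g recur in another gene, and none of Ly6d or Ly6e. Levels of Ly6c1 and Ly6c2 are therefore less certain than those of the other members, because how the counting treated reads that map to both is not given in the sources used here.

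**Figure D1:**
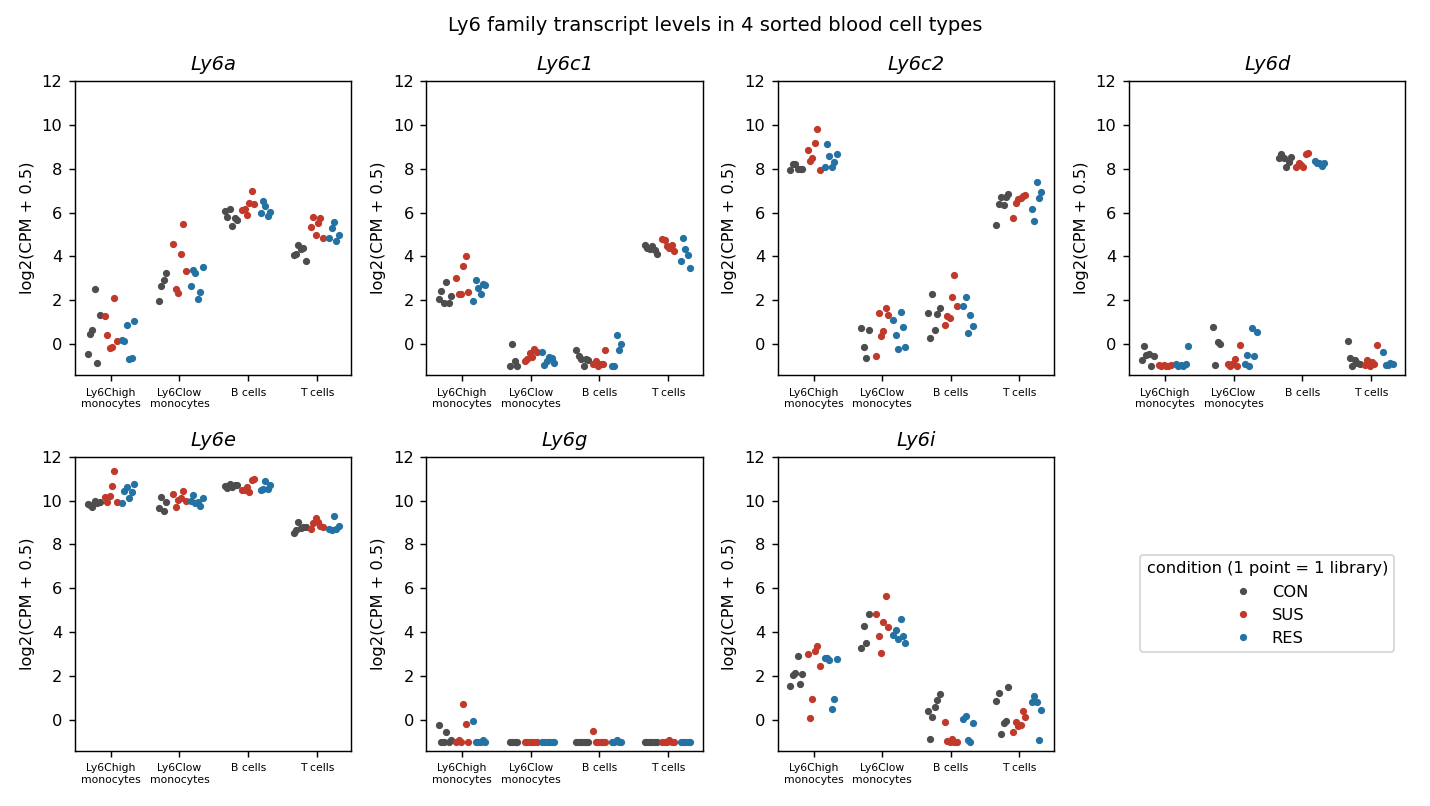
Levels of the 7 Ly6 genes in the 4 sorted cell types, as log2(CPM + 0.5) on the vertical axis, with 1 point for each of 68 libraries coloured by CON, SUS or RES. The highest levels of Ly6d are in B cells and those of Ly6c2 in Ly6Chigh monocytes, Ly6e is high in all 4 cell types, and Ly6g lies near 0 CPM throughout.

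Ly6d was the member most restricted to one sort. In B cells it lay at 268 CPM at the lowest, 310 CPM at the median and 414 CPM at the highest of 17 libraries, and no library of another sort exceeded 1.21 CPM. Among CON libraries, Ly6d averaged 347 ± 48.2 CPM (SD, n = 6) in B cells and 0.161 ± 0.231 CPM (SD, n = 6) in T cells, a log2 difference of 11.05 (SE 0.72) with an adjusted p of 1.05e-19 in edgeR's quasi-likelihood test. The highest T cell library and the lowest B cell library were far apart. Among the remaining sorts, Ly6d differed between Ly6Clow monocytes and T cells by 1.82 on the log2 scale at an adjusted p of 0.0567, on levels of 0.579 and 0.161 CPM. That difference passed the threshold without CON library 24 of the Ly6Clow monocytes (2.20, adjusted p 0.0208) and without CON library 53 of the T cells (2.87, adjusted p 0.00710). Over all 10 such omissions it ran from 1.06 to 2.87, with an edgeR adjusted p of up to 0.401. It rests on 87 counts over 4 CON Ly6Clow libraries and 39 counts over 6 CON T cell libraries.

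Ly6e was the broadest member, with at least 365 CPM in each of the 68 libraries. Per kilobase of exon, a scale on which genes can be set side by side, Ly6e averaged 428 CPM per kb in B cells, 325 in Ly6Chigh monocytes, 272 in Ly6Clow monocytes and 121 in T cells, while Ly6d averaged 440 CPM per kb in B cells. The length used covers all annotated exons, 3784 bases for Ly6e and 744 for Ly6d. The transcript Ly6e-201 has 2281 bases and Ly6d-201 has 744, so the order of Ly6d and Ly6e on this scale depends on the length chosen. In CON libraries the Ly6e level was 1635 ± 78.1 CPM in B cells (SD, n = 6), 922 ± 61.9 CPM in Ly6Chigh monocytes (SD, n = 6), 922 ± 179 CPM in Ly6Clow monocytes (SD, n = 4) and 433 ± 49.9 CPM in T cells (SD, n = 6). B cells lay above Ly6Chigh monocytes by 0.83 on the log2 scale, since the fitted difference of Ly6Chigh minus B cells was -0.83 (SE 0.15, edgeR adjusted p 5.29e-06), and Ly6Chigh monocytes lay above T cells by 1.09 (SE 0.15, edgeR adjusted p 8.16e-09). The monocyte sorts did not differ beyond their spread, with a log2 difference of 0.00025 and a 95% interval of -0.34 to 0.34.

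Ly6c2 and Ly6c1, the genes of the Ly6C antigen, had different orders. Ly6c2 was highest in Ly6Chigh monocytes, at 244 CPM or more in all 18 libraries with a median of 311 CPM and a maximum of 904 CPM, and T cells followed at 43.4 to 169 CPM with a median of 100.5 CPM. It was low in B cells (0.724 to 8.51 CPM) and Ly6Clow monocytes (0.143 to 2.66 CPM). The monocytes were sorted on Ly6C protein, so the Ly6c2 difference between the monocyte sorts, 268 against 0.689 CPM in CON libraries, is what the gate selected and is given with no test. That gate also selected the monocytes compared with T and B cells. The p-values of those comparisons therefore cannot show a Ly6c2 difference apart from the gate. Ly6Chigh monocytes lay above T cells by 1.60 on the log2 scale (SE 0.41, edgeR adjusted p 0.00103) and T cells above B cells, at a fitted difference of B minus T cells of -5.32 (SE 0.49, edgeR adjusted p 8.90e-14). Ly6c2 was lower in Ly6Clow monocytes than in B cells by a log2 difference of -1.68 (SE 0.56, edgeR adjusted p 0.0126), and that call was lost without CON library 24 (adjusted p 0.0512) or CON library 29 (adjusted p 0.0644) of the Ly6Clow monocytes. The same call was lost with libraries 52 and 70 kept (edgeR adjusted p 0.128).

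Ly6c1 was instead highest in T cells, with 10.6 to 28.0 CPM and a median of 20.5 CPM over 17 libraries. In Ly6Chigh monocytes it ranged from 3.13 to 15.5 CPM with a median of 4.80 CPM, and in B cells and Ly6Clow monocytes no library exceeded 0.857 CPM. In CON libraries Ly6Chigh monocytes lay below T cells, at 4.25 against 20.1 CPM and a log2 difference of -2.24 (SE 0.54, edgeR adjusted p 0.000443). The monocyte side of this comparison was gated on Ly6C, so its p-value cannot be read apart from the gate. Levels in Ly6Clow monocytes and B cells, 0.151 and 0.147 CPM, did not differ beyond their spread (adjusted p 0.975). How many of these low counts are reads shared with Ly6c2 was not tested.

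Ly6a was highest in B cells, with a median of 66.4 CPM over 17 libraries, followed by T cells (28.0 CPM), Ly6Clow monocytes (7.96 CPM) and Ly6Chigh monocytes (0.732 CPM). In CON libraries the means were 56.1 ± 10.9, 18.3 ± 3.26, 6.30 ± 2.30 and 1.57 ± 1.91 CPM in that order (SD, n = 6, 6, 4 and 6). Every step of this order passed the thresholds. B cells lay 1.62 above T cells on the log2 scale (SE 0.50, edgeR adjusted p 0.0104), Ly6Clow monocytes differed from T cells by -1.54 (SE 0.58, edgeR adjusted p 0.0325), and Ly6Chigh from Ly6Clow monocytes by -2.01 (SE 0.57, edgeR adjusted p 0.00811). The call between Ly6Clow monocytes and T cells was lost without any one of CON libraries 21 (adjusted p 0.0975), 24 (0.0671) and 29 (0.0519) of the Ly6Clow monocytes or 59 of the T cells (0.0511). This call was also lost with no filter on low counts (edgeR adjusted p 0.0508) and with only the CON libraries fitted (0.0597).

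Ly6i had its highest levels in Ly6Clow monocytes, at 7.89 to 49.9 CPM with a median of 15.5 CPM over 16 libraries. Ly6Chigh monocytes held 0.577 to 9.94 CPM, and no B or T cell library exceeded 2.35 CPM. In CON libraries the monocyte means were 16.7 ± 8.60 CPM (SD, n = 4) in Ly6Clow and 3.88 ± 1.69 CPM (SD, n = 6) in Ly6Chigh, a log2 difference of -2.10 (SE 0.72) at an edgeR adjusted p of 0.0328. The adjusted p was 0.0523 to 0.132 without any one of CON libraries 1, 4, 7, 13 or 16 of the Ly6Chigh monocytes or 24 or 32 of the Ly6Clow monocytes. With no filter on low counts it was 0.0608, and with libraries 52 and 70 kept it was 0.0582, both in edgeR. Ly6Chigh monocytes lay above T cells by 1.85 (SE 0.68, edgeR adjusted p 0.0225), a call lost without CON library 10 of the Ly6Chigh monocytes (adjusted p 0.0674) or CON libraries 59, 62 or 65 of the T cells (adjusted p 0.0569, 0.0536 and 0.0523). T and B cells, at 1.08 and 0.939 CPM, did not differ beyond their spread (adjusted p 0.905).

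Ly6g, the neutrophil antigen, was nearly absent. It had 94 counts over 18 Ly6Chigh libraries, of which 10 were at 0 and 1 held 46 counts, no count over 16 Ly6Clow libraries, 7 counts over 17 B cell libraries and 1 count over 17 T cell libraries. The cells were stained for Ly6G, but how that stain entered the gates is not given in the sources used here, and its part in this level was not tested. A fold against groups at 0 is not given.

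Counted over CON libraries, the members called between 2 sorts (adjusted p below 0.05, with the log2 fold change beyond 1 in either direction) were 4 of 7 for Ly6Chigh against Ly6Clow monocytes, where 10.6% of all 24248 tested genes were called, and Ly6c1 and Ly6c2 among these 4 are the gate's own. The count was 6 of 7 for Ly6Chigh monocytes against B cells (32.3% of all genes) and 6 of 7 against T cells (32.4%). Ly6g is among these 6 in both with 19 counts in CON Ly6Chigh libraries and 0 in CON B and T cell libraries, and its call against B cells was lost without CON library 35, 41, 44, 47 or 50 of the B cells (adjusted p 0.0501 to 0.0540). Ly6Clow monocytes differed in 4 of 7 members from B cells (28.9%) and in 5 of 7 from T cells (27.1%), one of them Ly6e, which fell under the fold threshold without CON library 24 of the Ly6Clow monocytes (0.92), and B from T cells in 5 of 7 (20%). Ly6c2 is among the called members in every comparison of monocytes with B or T cells, and Ly6c1 in all but Ly6Clow monocytes against B cells. The monocytes in these comparisons were gated on Ly6C.

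**Figure D2:**
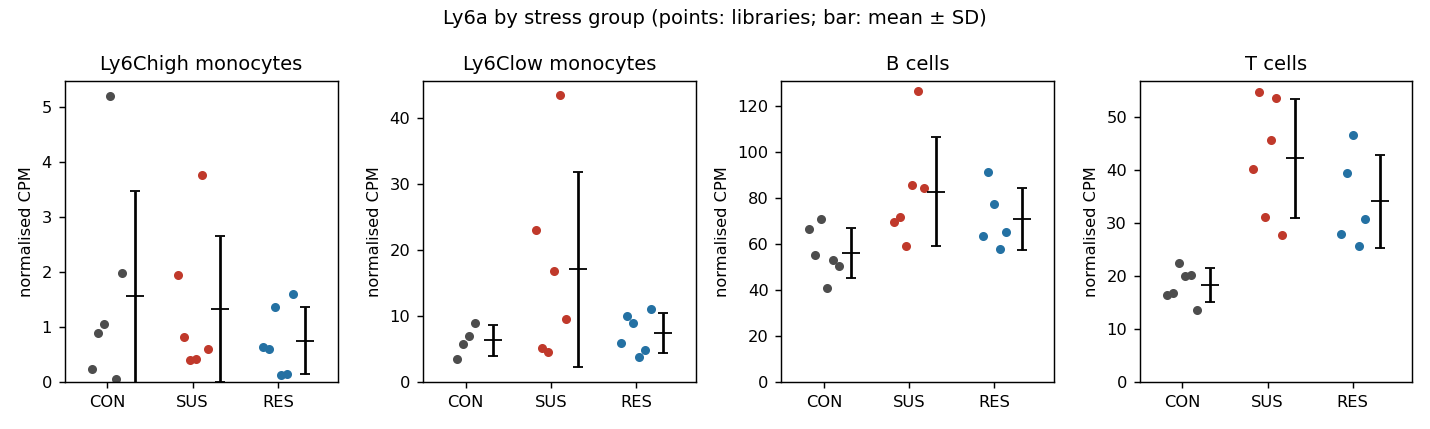
Normalised CPM of Ly6a in CON, SUS and RES libraries of the 4 sorts, with 1 point per library and a bar for the mean ± SD, on a linear axis that starts at 0 and differs between panels. In T cells all 6 SUS libraries (27.8 to 54.7 CPM) and all 5 RES libraries (25.6 to 46.7 CPM) lie above the highest CON library (22.5 CPM).

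Ly6a in T cells was the only member called between stress groups. The comparison of SUS with CON mice asks whether the immune cells of mice that became socially avoidant differ from those of undefeated mice. Ly6a in T cells lay at 13.5 CPM at the lowest, 18.5 CPM at the median and 22.5 CPM at the highest of the 6 CON libraries, and at 27.8, 42.9 and 54.7 CPM in the 6 SUS libraries. Every SUS library lay above every CON library. The mean rose from 18.3 ± 3.26 CPM (SD, n = 6) in CON to 42.2 ± 11.3 CPM (SD, n = 6) in SUS mice, a log2 fold change of 1.20 (SE 0.18, 95% interval 0.83 to 1.56) with an adjusted p of 0.00338 in edgeR's quasi-likelihood test. This was 1 of 5 members tested in T cells, where 0.0265% of 18860 genes were called, and Ly6a ranked 1 by p among them. The call held without any one of the 12 libraries (log2 fold change 1.10 to 1.29). It was lost when all 12 groups were fitted together (1.21, adjusted p 0.433), with the mean log2 level of the red cell markers as a covariate (1.02, adjusted p 0.215), and with libraries 52 and 70 kept (1.21, adjusted p 0.355), although its size changed little. In that last setting library 70, which holds B cell markers, counts as a RES T cell library in the shared estimate of the spread. In bulk sorted cells, more or fewer cells that carry a transcript and more or less RNA per cell cannot be told apart. This holds for each result here.

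RES mice had Ly6a levels between those of CON and SUS mice in T cells. The 5 RES libraries held 28.0, 39.4, 46.7, 25.6 and 30.8 CPM. All 5 lay above the highest CON library, 4 within the SUS range and 1 below it. The log2 fold change of RES vs. CON mice was 0.89 (SE 0.18, 95% interval 0.52 to 1.26), ranked 3 by p, with an adjusted p of 0.246 in edgeR's test and 0.0209 in DESeq2. SUS and RES mice differed by 0.31 (95% interval -0.07 to 0.68). In RES vs. CON mice, 0 of 5 members were called (0% of all genes, 1 member at an unadjusted p under 0.05), and in SUS vs. RES mice 0 of 5 (0% of all genes, 0 members at an unadjusted p under 0.05), and DESeq2 also called 0 in both. SUS and RES mice were compared with the same CON libraries.

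The other members gave T cells no called change. The SUS vs. CON log2 fold changes were 0.19 for Ly6c1, 0.069 for Ly6c2, 0.15 for Ly6e and -1.26 for Ly6i, each at an adjusted p of 0.999. Ly6i rested on 246 counts over the 6 CON and 101 counts over the 6 SUS libraries. Ly6c2 in CON T cells ranged from 43.4 to 115 CPM and in SUS T cells from 54.1 to 112 CPM, so the groups overlapped nearly throughout.

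Markers of other cells were read beside the Ly6a result. The summed level of 6 red cell genes ran from 597 to 2004 CPM in CON (median 1076), from 1210 to 3218 CPM in SUS (median 1671) and from 1245 to 3281 CPM in RES T cells (median 1381). All 6 had positive log2 fold changes in SUS vs. CON mice with a median of 1.09, and 0 were called. The sums of 6 naive T cell markers (3853 to 4671 CPM in CON, 3674 to 5042 CPM in SUS), of 8 memory and effector T cell markers (504 to 1557 and 565 to 1103 CPM) and of 7 natural killer cell markers (85.2 to 243 and 70.4 to 166 CPM) overlapped between CON and SUS T cells. Single genes did move. The other genes called were Neb (log2 fold change 1.72), Socs3 (1.72), Rrm2 (2.15) and Il2ra (1.24, edgeR adjusted p 0.0312). The 10 smallest p-values also held E2f2 (0.89, edgeR adjusted p 0.0262), Lgals1 (0.85, 0.0287) and Tdrp, which was lower (-0.60, 0.0264). These missed only the fold threshold. Capg (0.85) and Icos (0.79), also among the 10, missed both thresholds at an edgeR adjusted p of 0.0564. The part of these cells and genes in the Ly6a result was not tested beyond the covariate fit given above. The median red cell level was higher in SUS than in CON T cells, so that fit cannot fully separate stress from red cell content.

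Ly6a in the other sorts moved less or more variably. In B cells it lay at 40.9, 54.0 and 70.8 CPM (lowest, median, highest) in 6 CON libraries and at 59.1, 78.0 and 126 CPM in 6 SUS libraries. Of the SUS libraries, 4 lay above every CON library and 2 overlapped them. The means were 56.1 ± 10.9 and 82.7 ± 23.6 CPM (SD, n = 6 for both), and the log2 fold change was 0.57 (SE 0.16) with an edgeR adjusted p of 0.807. The 5 RES libraries held 57.6 to 91.3 CPM, a log2 fold change of 0.34 against CON.

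In Ly6Clow monocytes the 4 CON libraries held Ly6a at 3.47, 5.74, 7.01 and 8.96 CPM. The 6 SUS libraries ran from 4.57 to 43.5 CPM with a median of 13.1 CPM, and the 6 RES libraries from 3.73 to 11.1 CPM with a median of 7.38 CPM. Libraries 19, 27, 30 and 33 of SUS mice lay above every CON library, at 23.0, 16.8, 43.5 and 9.48 CPM, and the other 2 lay within the CON range. The SUS vs. CON log2 fold change was 1.44 (SE 0.58, edgeR adjusted p 0.432), and leaving out single libraries gave 0.91 to 1.64, the lowest without SUS library 30. With the mean log2 level of the red cell markers as a covariate it was 0.655 (edgeR adjusted p 0.999). In Ly6Chigh monocytes Ly6a stayed at or under 5.20 CPM in all 18 libraries and its SUS vs. CON log2 fold change was -0.26.

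The SUS vs. CON change of Ly6a was compared between sorts by interaction terms in a fit of all 12 groups. T cells differed from Ly6Clow monocytes by -0.23 (adjusted p 1.00), from B cells by 0.65 (adjusted p 1.00), and Ly6Chigh monocytes from T cells by -1.45 (adjusted p 0.270). The change in T cells was therefore not shown to be particular to them. No member passed for T cells against Ly6Clow monocytes or B cells, in the SUS contrast (0.00412% and 0.0949% of all genes passed) or in the RES contrast (0.00412% and 0.0206%), and these comparisons were added after the data were seen.

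**Figure D3:**
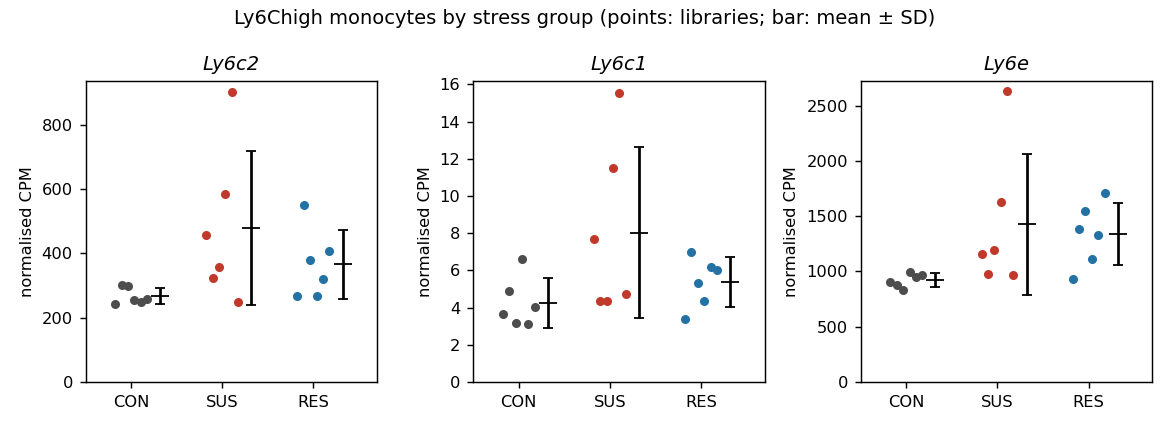
Normalised CPM of Ly6c2, Ly6c1 and Ly6e in Ly6Chigh monocytes of CON, SUS and RES mice, with 1 point per library and a bar for the mean ± SD, on linear axes from 0. The SUS libraries spread more widely than the CON libraries, with the highest at 904 CPM for Ly6c2, 15.5 CPM for Ly6c1 and 2632 CPM for Ly6e.

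In Ly6Chigh monocytes, the Ly6C transcripts and Ly6e averaged higher in SUS than in CON mice, under the fold threshold of a call. Ly6c2 lay at 244, 257 and 302 CPM (lowest, median, highest) in 6 CON libraries and at 248, 408 and 904 CPM in 6 SUS libraries. Of the SUS libraries, 5 lay above every CON library and 1 lay within the CON range. The means were 268 ± 25.5 and 479 ± 239 CPM (SD, n = 6 for both), and the log2 fold change was 0.82 (SE 0.24, 95% interval 0.33 to 1.30) with an adjusted p of 0.0243 in edgeR's quasi-likelihood test. Without SUS library 14, the highest, the log2 fold change was 0.49 with an adjusted p of 0.0935. The adjusted p also passed 0.05 without CON library 1 (0.0587) and SUS library 11 (0.0539). All these cells were gated on Ly6C protein, in each stress group, and the part of the gate in this difference was not tested.

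Ly6e showed a similar pattern. It lay at 831, 928 and 998 CPM (lowest, median, highest) in CON and at 968, 1175 and 2632 CPM in SUS mice. Of the 6 SUS libraries, 4 exceeded every CON library. The log2 fold change was 0.60 (SE 0.20, edgeR adjusted p 0.0502), and 0.29 without SUS library 14 (adjusted p 0.208). Its adjusted p was below 0.05 without any one of SUS libraries 2, 5, 8 or 17 (0.0242 to 0.0489). Ly6c1 averaged 4.25 ± 1.32 CPM in CON and 8.03 ± 4.62 CPM in SUS mice (SD, n = 6 for both), and the log2 fold change was 0.89 (SE 0.36, edgeR adjusted p 0.113), and 0.55 without SUS library 14 (adjusted p 0.407). Library 14 was the highest SUS library for Ly6c1, Ly6c2, Ly6e and Ly6i. With Ly6c1 and Ly6c2 counts summed into one feature, the log2 fold change was 0.82 (adjusted p 0.0241).

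In RES mice, the means in Ly6Chigh monocytes were 366 CPM for Ly6c2, 1338 CPM for Ly6e and 5.37 CPM for Ly6c1. These means lay between those of CON and SUS mice, but the RES median of Ly6e, 1361 CPM, was above the SUS median of 1175 CPM, and the SUS mean holds library 14 at 2632 CPM. The log2 fold changes against CON mice were 0.44 (adjusted p 0.287), 0.52 (adjusted p 0.129) and 0.32 (adjusted p 0.672) in the same order in edgeR's test. At the call thresholds, 0 of 5 tested members were called in SUS vs. CON mice (3 at an unadjusted p under 0.05, 3.45% of all genes called), 0 of 5 in RES vs. CON mice (1 at an unadjusted p under 0.05, 0.997% of all genes) and 0 of 5 in SUS vs. RES mice (0 at an unadjusted p under 0.05, 0% of all genes). DESeq2 called 0 in each.

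Red cell transcripts moved with the stress group in this sort. The summed level of the 6 red cell genes was 238 to 907 CPM in CON (median 420), 801 to 6374 CPM in SUS (median 1187) and 782 to 3192 CPM in RES Ly6Chigh monocytes (median 1344). All 6 were called higher in SUS vs. CON mice, with a median log2 fold change of 2.09 against -0.048 over all tested genes, and 2 of 6 in RES vs. CON mice. With the mean log2 level of these genes as a covariate, the SUS vs. CON log2 fold change of Ly6c2 was -0.024 (adjusted p 0.996) and that of Ly6e was -0.091 (adjusted p 0.996). The covariate itself rose with the stress group, so this fit cannot tell a difference with stress from a difference with red cell content. The summed level of the 12 neutrophil markers was 703 to 1172 CPM in CON and 932 to 2458 CPM in SUS mice, and that of 6 platelet markers was 6.15 to 10.4 CPM in CON and 5.86 to 51.3 CPM in SUS mice, with 1 of 6 called. Of 7 markers of Ly6Chigh monocytes themselves, 2 were called higher in SUS mice and the median log2 fold change was 0.59.

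**Figure D4:**
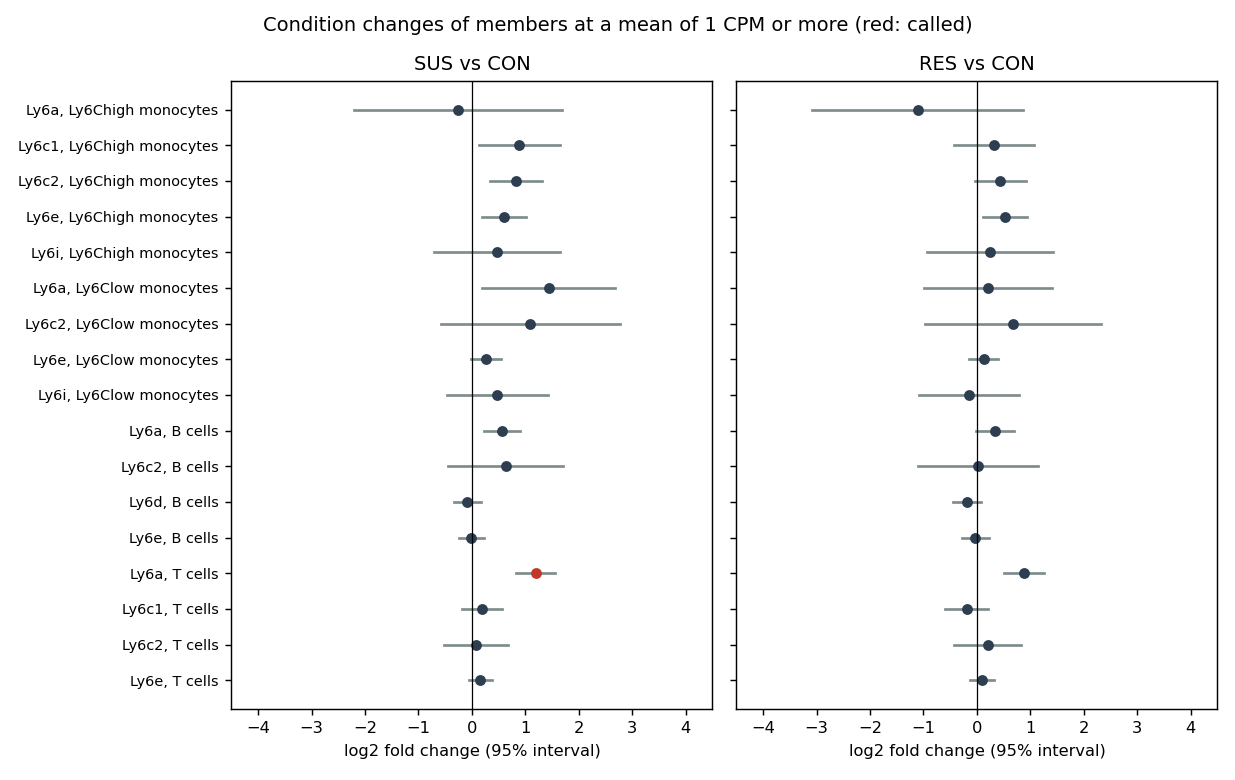
Fitted log2 fold changes of SUS vs. CON (left) and RES vs. CON mice (right) for members averaging at least 1 CPM in a sort, with lines for the 95% interval and a red point for a call. Ly6a in T cells of SUS mice (1.20) is the one red point, and its interval does not reach 0 in RES mice either (0.52 to 1.26).

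In Ly6Clow monocytes, 0 of 6 tested members were called in SUS vs. CON mice (1 at an unadjusted p under 0.05, 0.0871% of all genes called), 0 of 6 in RES vs. CON mice (0 at an unadjusted p under 0.05, 0.0154%) and 0 of 6 in SUS vs. RES mice (1 at an unadjusted p under 0.05, 0% of all genes), in edgeR and in DESeq2. Ly6i, whose level peaked in this sort, lay at 9.14, 10.8, 18.9 and 27.8 CPM in the 4 CON libraries and at 7.89 to 49.9 CPM in the SUS libraries. Those ranges overlapped. Its log2 fold change was 0.48 (SE 0.44, edgeR adjusted p 0.846). SUS library 30 was highest for both Ly6a and Ly6i. No change of Ly6e was called in this sort, whose CON mean was 922 ± 179 CPM (SD, n = 4), with a SUS mean of 1105 ± 203 CPM and a RES mean of 1023 ± 128 CPM (SD, n = 6 for both). Red cell genes summed to 217 to 949 CPM in CON and 618 to 1972 CPM in SUS Ly6Clow monocytes, and natural killer cell markers to 318 to 1034 and 419 to 1109 CPM. With the red cell covariate, the SUS vs. CON log2 fold change of Ly6a in this sort was 0.655, against 1.44 without it. The covariate was higher in SUS mice here too, so this fit cannot fully separate stress from red cell content. The part of these cells in the values was not tested further.

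In B cells, 0 of 5 members were called in SUS vs. CON (2 at an unadjusted p under 0.05, 0.00568% of all genes called), RES vs. CON (0 at an unadjusted p under 0.05, 0% of all genes) and SUS vs. RES mice (0 at an unadjusted p under 0.05, 0% of all genes), in edgeR and in DESeq2. Ly6d, the B lineage antigen, averaged 347 ± 48.2 CPM among CON libraries (SD, n = 6), 326 ± 65.9 CPM among SUS libraries (SD, n = 6) and 305 ± 18.1 CPM among RES libraries (SD, n = 5), and the groups overlapped. Ly6e averaged 1635, 1618 and 1600 CPM in the same order. Ly6i was low, with 33, 1, 26, 30, 44 and 54 counts in the CON libraries and 13, 1, 0, 1, 0 and 0 counts in the SUS libraries. Scaled to CPM, 4 of 6 SUS libraries were below every CON library, 1 of them with a single count, as the lowest CON library also had. The SUS vs. CON log2 fold change was -3.42 (SE 1.37, edgeR adjusted p 0.999). In these cells the natural killer cell markers summed to 3.22 to 7.31 CPM in CON and 15.7 to 41.4 CPM in SUS mice, and the red cell genes to 952 to 5485 and 2134 to 9094 CPM. Their part in these values was not tested beyond a fit with the red cell covariate, which also called 0 members.

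Between sorts, 1 member had a SUS vs. CON change that differed. Ly6i changed by 0.50 on the log2 scale in Ly6Chigh monocytes and by -3.46 in B cells in the fit of all groups, a difference of 3.95 (SE 1.05, edgeR adjusted p 0.0161). This was 1 of 7 members for Ly6Chigh monocytes against B cells, where 6.18% of all genes passed, and it rests on the low B cell counts above. No member passed for Ly6Chigh against Ly6Clow monocytes (0.363% of all genes) or T cells (3.22%) in the SUS contrast, and none in the RES contrast against Ly6Clow monocytes (0.099%), B cells (1.65%) or T cells (0.713%). For Ly6e, the SUS vs. CON difference between Ly6Chigh monocytes and B cells was 0.64 at an adjusted p of 0.0539.

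**Figure D5:**
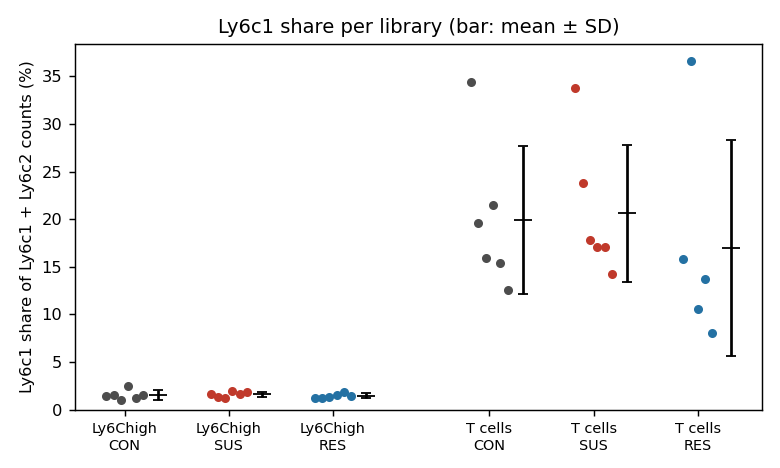
Share of Ly6c1 in the summed counts of Ly6c1 and Ly6c2, in percent, for each library of Ly6Chigh monocytes and T cells by stress group, with bars for the mean ± SD. The share is 1.06 to 2.52% in Ly6Chigh monocytes and 8.10 to 36.6% in T cells, with CON, SUS and RES libraries overlapping in both.

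The balance of the Ly6C genes differed between Ly6Chigh monocytes and T cells. Ly6c1 made up 1.57 ± 0.507% of the Ly6c1 and Ly6c2 counts among CON, 1.61 ± 0.290% among SUS and 1.47 ± 0.242% among RES libraries of Ly6Chigh monocytes (SD, n = 6 per group). In T cells the share was 19.9 ± 7.79% among CON, 20.6 ± 7.18% among SUS and 17.0 ± 11.4% among RES libraries (SD, n = 6, 6 and 5). The lowest T cell library (8.10%) lay above the highest Ly6Chigh library (2.52%). Exact permutation tests of the log2 count ratio, two-sided, gave a SUS vs. CON difference of 0.072 in Ly6Chigh monocytes (p = 0.738) and 0.082 in T cells (p = 0.816), and a RES vs. CON difference of -0.40 in T cells (p = 0.435). With 9 comparisons run, the exact adjusted p ranged from 0.783 to 0.983, and the smallest p the groups allow is 0.0021645. In B cells, with as few as 24 counts on both genes in a library, the share averaged 7.67 ± 7.78% among CON, 3.10 ± 3.95% among SUS and 18.0 ± 20.3% among RES libraries (SD, n = 6, 6 and 5), and the SUS log2 ratio differed by -1.42 from CON (exact p = 0.158) and by -1.45 from RES libraries (exact p = 0.390). Ly6Clow monocytes, with as few as 8 counts, were not run.

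The rest of the Ly6/uPAR superfamily, which shares the same protein fold, was sparse in these cells. Of 42 listed genes, 37 were in the table and 4 to 11 were tested per sort, with 0 called in any stress comparison by edgeR and at most 2 at an unadjusted p under 0.05. Plaur, the urokinase receptor, was an abundant exception, at 156 CPM in CON Ly6Chigh monocytes and 3.06 CPM in CON T cells (log2 difference 5.65). The 37 genes together had CON medians of 168 CPM in Ly6Chigh monocytes, 103 CPM in Ly6Clow monocytes, 157 CPM in B cells and 36.9 CPM in T cells. Which genes make up the B cell sum is not given here. Genes that build and attach the GPI anchor moved in both directions in SUS vs. CON Ly6Chigh monocytes. Of 28 tested, 16 had positive log2 fold changes, the values ran from -1.04 to 1.11, and 9 had an unadjusted p under 0.05. The 1 gene called, a share near the 3.45% of all genes called, was Pgap1, an enzyme that remodels the anchor, at a mean of 45.0 CPM for SUS against 90.7 CPM for CON mice (log2 fold change -1.04, edgeR adjusted p 0.00669), while the median over the 28 was 0.068 against -0.048 over all tested genes. No other stress comparison called a GPI gene.

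Type I interferons are known to raise Ly6a and Ly6e. Of 30 genes of that response, 0 were called higher and 5 lower in SUS vs. CON Ly6Chigh monocytes, where 3.45% of all genes were called, with a median log2 fold change of -0.30 against -0.048 over all tested genes. The called genes included Mx2 (17.2 against 40.2 CPM, log2 fold change -1.26, edgeR adjusted p 0.00428), Mx1 (98.0 against 203 CPM, -1.08, adjusted p 0.00535), Ifit2 (40.0 against 97.4 CPM, -1.31, adjusted p 0.00782) and Herc6 (15.0 against 38.2 CPM, -1.38, adjusted p 0.0166), of which Mx1 and Mx2 encode antiviral GTPases. In RES vs. CON Ly6Chigh monocytes 0 of 30 were called (5 at an unadjusted p under 0.05), with a median of -0.091, and the values were -0.57 for Mx2, -0.53 for Mx1, -0.37 for Ifit2 and -1.04 for Herc6. No gene of this list was called between SUS and RES mice, where 0% of all genes were called. The SUS vs. RES log2 fold changes were -0.69 for Mx2, -0.55 for Mx1, -0.94 for Ifit2 and -0.35 for Herc6. Other genes of the list were positive, among them Oas1a (0.25) and Zbp1 (0.19). In T cells 0 of 30 were called, but 29 of 30 had positive log2 fold changes in SUS (median 0.40 against -0.0034 over all tested genes) and 30 of 30 in RES vs. CON mice (median 0.50 against 0.0048). In B cells 0 of 29 were called, with 29 positive in SUS (median 0.38) and 26 in RES vs. CON mice (median 0.48). In Ly6Clow monocytes 0 of 30 were called, with 23 positive in SUS vs. CON mice (median 0.16). At an unadjusted p under 0.05 there were 11 genes in T cells, 8 in B cells and 2 in Ly6Clow monocytes for SUS mice. SUS and RES values share the CON libraries. Genes of one response, measured in the same libraries, are not independent, so the counts of positive values are a description. Whether this response bears on the levels of Ly6a or Ly6e was not tested.

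Genes with the level pattern most like each member were found by Pearson's r of log2(CPM + 0.5), given as a description, because libraries of a sort share their cell type. Over all 68 libraries the closest was Pecam1 for Ly6a (r = 0.942), Pdlim1 for Ly6c2 (0.945), Rcan3 for Ly6c1 (0.930), the immunoglobulin segment Ighv9-3 for Ly6d (0.994), Grb2 for Ly6e (0.946) and Ear2 for Ly6i (0.901). Within the sort where a member was highest, after the mean of each stress group was taken away, the closest were Irf9, Sdc3 and Oas3 for Ly6a in 17 B cell libraries (0.865, 0.862 and 0.847), Ifitm3, H2-D1 and Npc2 for Ly6c2 in 18 Ly6Chigh libraries (0.932, 0.908 and 0.907), Cd81 and Cd79a for Ly6e in B cells (0.959 and 0.958) and Tgtp1, Tap1 and Tgtp2 for Ly6i in 16 Ly6Clow libraries (0.958, 0.935 and 0.910). Among the members themselves, the same residuals correlated in Ly6Chigh monocytes at 0.82 for Ly6c1 with Ly6c2, 0.84 for Ly6c2 with Ly6e and 0.83 for Ly6c1 with Ly6e. In Ly6Clow monocytes they did so at 0.70 for Ly6a with Ly6e and 0.67 for Ly6a with Ly6i, and in T cells at 0.70 for Ly6c2 with Ly6e and -0.53 for Ly6c1 with Ly6c2.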

How the data were processed

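The authors aligned read pairs to the mm10 build by HISAT2, counted them per Ensembl gene with htseq-count, and deposited raw counts, 1 column per library, all of which were mapped to a sample (0 columns unused). Strand, duplicate and multi-mapping settings are not given in the sources used here. Groups came from the sample labels. Counts were analysed with edgeR 4.0.16 in R 4.3.3, with DESeq2 1.42.0 as an alternative. Genes passed filterByExpr, libraries were scaled by TMM, and robust quasi-likelihood fits compared stress groups within each sort and sorts within CON, with Benjamini-Hochberg adjustment over all genes tested. Calls needed an adjusted p below 0.05 and a log2 fold change beyond 1 in either direction. Levels are TMM-normalised CPM (counts over the scaled library size, per 1e+06), with a pseudocount of 0.5 on the log2 scale. Correlated genes needed a mean of at least 1 CPM. The fits were tested on simulated data. No 2 replicates of a group were identical (171 pairs).

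Members, gene lists and the library exclusions were chosen with earlier results of these data known. All members are named, with the 4 called genes of a list with the smallest adjusted p and the 3 genes most like each member (fewer are printed for some). Plaur, the neutrophil markers Ngp, Ltf, Lcn2, Camp, Cd177, Retnlg and Mmp9 were chosen after their values were seen. So were the group means of Csf3r and the per-library values for Ly6i in B cells. The genes named beside Ly6a in T cells were also chosen by their values. Alternatives changed the tool, scaling, filter, samples, a red cell covariate or left out single libraries. Tests of T cells against other sorts and the summed Ly6c1 and Ly6c2 feature were added after the data were seen. Counts of duplicated reads are not independent molecules, so counting error is not covered.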

Additional observations from a re-analysis of the deposited data

Results flagged for a closer look

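In T cells of SUS mice, library 54 held Ly6c2 at 54.1 CPM, apart from the other 5 libraries at 85.8 to 112 CPM. In T cells of RES mice, library 61 held Ly6e at 621 CPM, apart from the other 4 at 404 to 457 CPM. These were the 2 lone libraries by Dixon's test among 51 groups of 4 to 6 libraries, and chance alone gives about 1 in 20. The SUS vs. CON change of Ly6i differed between Ly6Chigh monocytes and B cells by 3.95 on the log2 scale (edgeR adjusted p 0.0161), on B cell libraries of 0 to 54 counts.

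The libraries left out of the comparisons held members outside the CON range of the sort they were labelled with, on levels normalised with all 70 libraries. Library 52, labelled B cells of RES mice, held Ly6c1 at 9.58 CPM against 0 to 0.327 CPM in CON B cells, and Ly6c2 at 124 CPM against 0.703 to 4.29 CPM. It also held Ly6d at 0.0284 CPM and Ly6e at 488 CPM, below every CON B cell library. Library 70, labelled T cells of RES mice, held Ly6a at 72.0 CPM against 13.5 to 22.9 CPM in CON T cells, Ly6d at 321 CPM against 0 to 0.634 CPM, and Ly6e at 1547 CPM against 374 to 521 CPM, while Ly6c1 at 2.01 CPM and Ly6c2 at 4.09 CPM were below every CON T cell library.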

How the results depend on the processing

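No paired analysis was possible because the labels give no animal for a library. Of the counts of called members in stress comparisons, that for SUS vs. CON T cells went from 1 to 0 with all 12 groups in one fit, with the red cell covariate and with libraries 52 and 70 kept, and the others did not change. With libraries 52 and 70 kept, 1 member differed in its RES vs. CON change between Ly6Chigh monocytes and T cells (0 without them). Single members were followed under the alternatives where their unadjusted p was under 0.05. Among these, the red cell covariate turned the SUS vs. CON log2 fold change in Ly6Chigh monocytes to -0.024 for Ly6c2 and -0.091 for Ly6e. With all 12 groups in one fit their adjusted p was 0.153 and 0.00206. The causes of these changes were not tested. Red cell levels rose with stress in this sort, so the covariate fit cannot tell stress from red cell content. Leaving out single libraries moved the Ly6c1 to Ly6c2 log2 ratio difference across 0 for SUS vs. CON Ly6Chigh monocytes (-0.032 to 0.22), RES vs. CON Ly6Chigh monocytes (-0.16 to 0.091), RES vs. CON B cells (-0.93 to 1.14) and SUS vs. CON T cells (-0.12 to 0.31). Among members compared between sorts, 23 calls were lost and 2 gained when single libraries were left out, and 6 were lost under other settings, with 2 more, both of Ly6g, for which DESeq2 gave no adjusted p. One of the 6, Ly6c2 in Ly6Chigh monocytes vs. T cells, had an adjusted p of 0.0620 with libraries 52 and 70 kept. A pseudocount of 0.1 CPM kept 9 of 18 genes most like the members over all libraries. Levels under 1 CPM rest on few counts, and with 4 to 6 libraries a group small changes can be missed.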
